A study of Mus musculus with 12 samples.

Results

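Blood circular RNAs (circRNAs) of mice with the middle cerebral artery occluded (MCAO) for 3 h were compared with those of mice occluded for 5 min, the early against the immediate phase of ischemia. The comparison used 6 one-colour arrays, 3 of each time, out of 12 in the series, and covered 14236 circRNA probes, of which 10678 were bright enough on all 12 arrays to be tested. All animals were male Balb/c mice, recorded as 8 weeks old, and the RNA came from whole blood drawn by cardiac puncture. In both groups a filament closed the artery permanently under isoflurane until blood was taken. The sham group, shown beside them, had the same surgery without occlusion. Its labels place it at the start of the time course, so no sham group was matched to 3 h. Time since surgery and anaesthesia rose together with time of occlusion, and they cannot be told apart. The third occluded group was bled at 24 h and is also shown beside the others. Brain tissue was not on the arrays, so the cell source of a blood circRNA was not measured. Fewer cells of a type and less RNA per cell cannot be told apart in whole blood.

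A circRNA is a closed loop made when the splicing machinery joins the end of an exon back to the start of the same or an earlier exon. Its lack of free ends makes it resistant to the exonuclease RNase R, which was used here to remove linear RNA before labelling, and lets it outlast many linear transcripts in blood. One gene can give rise to several circRNAs that differ in the exons they join, so a circRNA is identified by its junction and not by its host gene. Each array probe is designed across one such junction. Values are normalized probe intensities on the log2 scale, in which a difference of 1 is a 2-fold change. They do not allow the levels of different probes to be ranked against each other.

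The arrays of 5 min were the dimmest in the series, and brightness thus moved with the comparison. The median raw intensity of circRNA probes was 50, 69 and 62 at 5 min (replicates 1 to 3) and 118, 99.5 and 200 at 3 h. The scanner software called 70.9% to 77.1% of circRNA probes well above background at 5 min and 84.1% to 88% at 3 h. The part of this difference in the results was not tested beyond the normalization alternatives. Replicate 3 of 3 h was scanned apart from the other 5 arrays, together with the arrays of 24 h, on what is here called slide 2. Its negative control spots had a median of 83.5, against 26 to 27 on the other 5. Those of the 24-h arrays had medians of 89 to 101, and levels at 24 h cannot be told apart from a difference between slides. Within the groups, replicate 1 of 5 min correlated least with its fellows (r of 0.931 and 0.965 over tested probes, against 0.989 between replicates 2 and 3), and so did replicate 3 of 3 h (0.908 and 0.923, against 0.989). The labels call the arrays biological replicates, and the sources do not say whether blood was pooled.

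Between 5 min and 3 h, 222 of the 10678 tested probes, or 2.08%, passed the test, with an adjusted p no higher than 0.05 by limma and Benjamini-Hochberg. Of these, 136 (1.27% of tested probes) were higher at 3 h, by a median of 1.96 log2 units, and 86 (0.805%) were lower, by a median difference of -1.52. A difference of at least 2 log2 units was reached by 80 of them (0.749%), 63 higher (0.59%) and 17 lower (0.159%). On all 222 the 3 arrays of 3 h lay wholly on one side of the 3 arrays of 5 min, which was also the case for 34.4% of all tested probes. Over all tested probes the median difference was -0.11, with quartiles of -0.49 and 0.35. The unadjusted p was below 0.05 for 2382 probes. Near the limit, the last higher probe called had an adjusted p of 0.049 and a log2 difference of 2.35, and the next one outside had 0.0503 and 1.36; on the lower side the pairs were 0.0497 and -1.34 inside and 0.0529 and -1.15 outside.

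**Figure D1:**
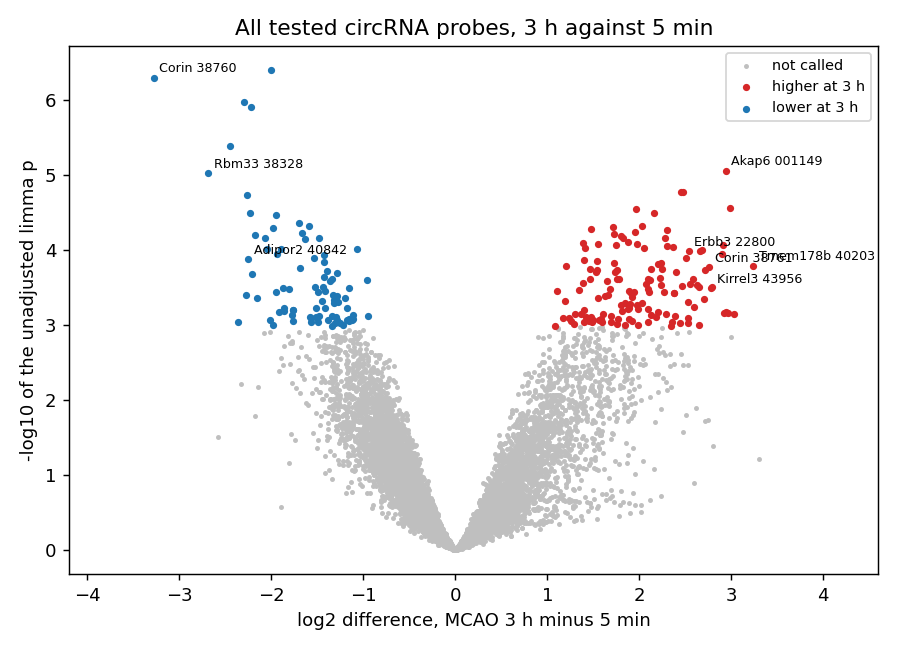
Log2 difference between MCAO 3 h and 5 min (x axis) against -log10 of the unadjusted limma p (y axis) for the 10678 tested circRNA probes. Red points are the 136 probes called higher at 3 h, blue points the 86 called lower, and 8 of the circRNAs described in the text are labelled with their host gene and number.

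The number of calls rested on single arrays. Without replicate 2 or 3 of 5 min, 6 and 4 probes were called. Without replicate 1 or 2 of 3 h, 4 and 7 were called, and without sham replicate 2, which enters through the shared estimate of the spread, 10. No higher probe was among the calls without 5-min replicate 2, 5-min replicate 3 or 3-h replicate 1, where 1783, 1527 and 1815 probes had an unadjusted p below 0.05. Leaving out 24-h replicate 2 gave 51 calls and leaving out sham replicate 3 gave 138, whereas more probes were called without sham replicate 1 (347), 24-h replicate 1 (711) or 5-min replicate 1 (420). The 420 held 123 of the 136 higher probes and 52 of the 86 lower probes. A fit of the 6 compared arrays alone called 50 probes, 25 in each direction. In each of these fits the 222 probes kept the sign of their difference.

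Slide 2 held a single array of the comparison, so the same fit was made on the 8 arrays of slide 1, where 3 h had 2 arrays. It called 603 probes, 431 higher and 172 lower, which included 125 of the 136 higher probes and 72 of the 86 lower probes. With slide as a term in the fit of 12 arrays, 254 probes were called, 83.1% of them higher, against 61.3% in the fit without it. Since slide 2 otherwise held arrays of 24 h only, the term took replicate 3 of 3 h out of the difference. Of the 109 named calls 31 were lost with that term. Cyclic loess normalization also moved this share, to 72.5%. Without replicate 3 of 3 h, 94 of the 136 higher probes and 40 of the 86 lower probes were still called, and it was the lowest of the 3 arrays of 3 h for 63 of the 86. Among the 136 higher probes the highest array of 5 min was replicate 1 for 121, and the lowest was replicate 2 for 119. The SD at 5 min had a median of 0.65 over the higher probes and of 0.23 over the lower ones, against 0.28 over all tested probes.

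**Figure D2:**
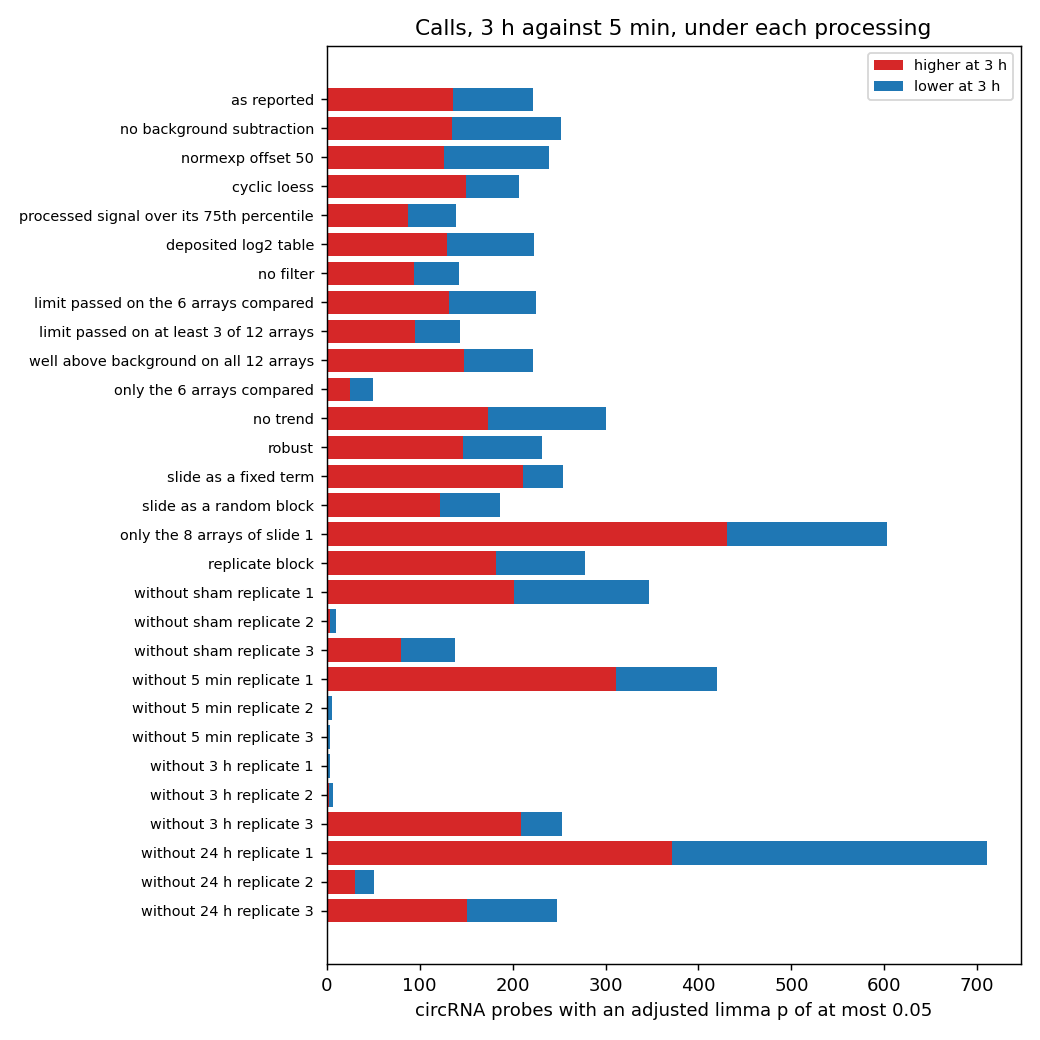
Number of circRNA probes called between 3 h and 5 min (x axis, adjusted limma p of at most 0.05) under the reported processing and its alternatives (y axis), higher at 3 h in red and lower in blue. Calls ranged from 4 without 5-min replicate 3 or 3-h replicate 1 to 711 without 24-h replicate 1; the fit with array weights, with 6490 calls, is left off the axis.

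The array files give probe numbers only. Names, places and types come from the study's list of 903 circRNAs that differed from sham, each of which was matched to its probe through its values, and 902 of them were tested here. Because that list was chosen on these same arrays, which include both groups compared, its members were more likely to differ here and the share called among them is no independent evidence. Of the 902, 109 were called (12.1%), 90 higher (9.98%) and 19 lower (2.11%), whereas 113 of the 9776 unnamed probes were called (1.16%). Places are on mm10 as the list gives them, and host genes were checked against the RefSeq annotation of GRCm38.

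The circRNA with the largest called decrease came from Corin, whose product is a serine protease that activates atrial natriuretic peptide. This exonic circRNA, mmu_circRNA_38760 (chr5:72329611-72343117, minus strand), read 9.90, 8.65 and 9.14 at 5 min and 5.77, 5.98 and 6.10 at 3 h. All 3 arrays of 3 h were low and close together, and the gap to the lowest array of 5 min was 2.55. The log2 difference was -3.28 (SE 0.36, n = 3 per group, adjusted p = 0.00267, limma), or 9.72-fold lower. It was called in all 29 alternatives run, including the 12 that left out an array and the arrays of slide 1 alone, where the difference was -3.35. Sham lay between the groups, at 8.02 ± 0.22 (SD, n = 3), and 24 h was at 5.43 ± 0.56.

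A different circRNA of the same gene went the opposite way. mmu_circRNA_38761, from chr5:72353869-72360758 of the same strand, a stretch that does not overlap that of 38760, read 9.57, 7.67 and 8.29 at 5 min and 11.54, 11.89 and 10.38 at 3 h. Its 3-h arrays were all above its 5-min arrays, with replicate 3 the lowest. The difference was 2.76 (SE 0.53, adjusted p = 0.0281, limma), and it kept its call in 6 of the 12 fits without one array. Sham was at 8.44 ± 0.03, next to the 5-min mean of 8.51, and 24 h at 11.45. Corin was the sole host gene among 3 with several called circRNAs whose called circRNAs had opposite signs, and both are spliced from transcripts of one gene. Its RefSeq promoter on GRCm38.p6 is printed with that of Hk2, the called host gene of the hypoxia and glucose list described later. Both can be read for ACGTG on either strand, in capitals, which is a form of the core of the hypoxia response element. Other forms of that core were not searched. The window is the 250 bases before the transcription start.

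Corin promoter, chr5:72504541-72504790, minus strand: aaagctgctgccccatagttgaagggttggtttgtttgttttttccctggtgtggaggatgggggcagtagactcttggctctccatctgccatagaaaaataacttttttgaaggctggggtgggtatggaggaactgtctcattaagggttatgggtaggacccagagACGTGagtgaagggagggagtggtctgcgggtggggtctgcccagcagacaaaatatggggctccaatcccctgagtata

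Hk2 promoter, chr6:82774455-82774704, minus strand: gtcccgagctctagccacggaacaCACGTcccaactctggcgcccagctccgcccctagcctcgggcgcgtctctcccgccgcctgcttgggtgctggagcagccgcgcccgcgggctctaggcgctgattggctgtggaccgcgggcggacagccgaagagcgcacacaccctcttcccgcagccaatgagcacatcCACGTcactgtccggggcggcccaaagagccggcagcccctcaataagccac

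The Corin window held 1 match and the Hk2 window 2. Of 32851 promoters in the RefSeq table, 16.6% held at least 1 match. Among host genes of called circRNAs with a promoter in the table, 21 of 81 promoters of the higher group (25.9%, from 58 of 78 host genes) and 8 of 24 of the lower group (33.3%, from 15 of 17) held one. The share among host genes of named circRNAs that were not called was not taken, and a gene can count with several promoters. The shares of the called groups and of all promoters are thus not on a like base. These are matches of letters in a window, and binding was not measured.

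**Figure D3:**
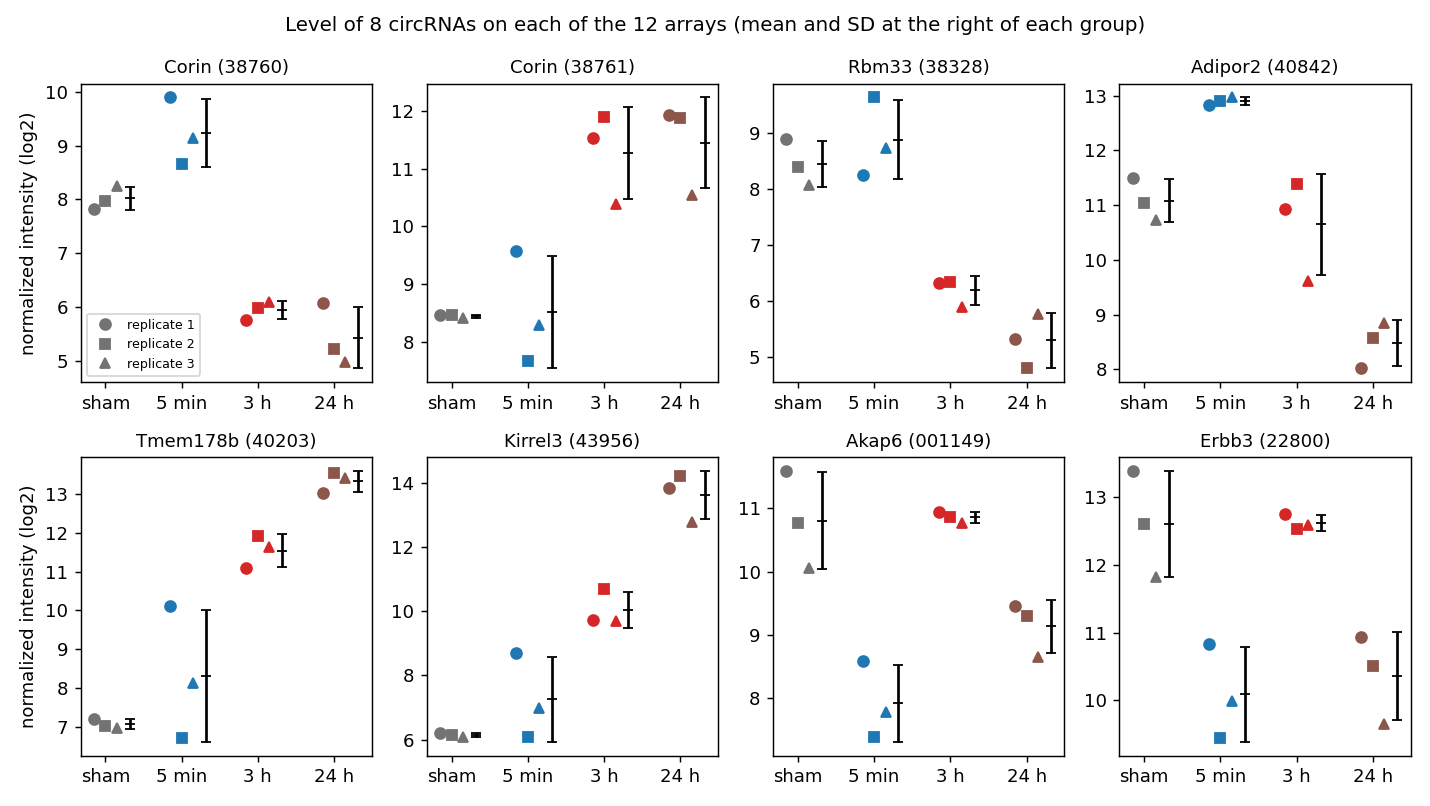
Normalized intensity (log2, y axis) of 8 circRNAs on each of the 12 arrays by group (x axis), with the mean and SD at the right of each group and a marker for each replicate. Corin 38760, Rbm33 and Adipor2 are lower at 3 h than at 5 min, and Corin 38761, Tmem178b, Kirrel3, Akap6 and Erbb3 are higher. Replicate 1 of 5 min lies above replicates 2 and 3 in all but Rbm33 and Adipor2.

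Next among the lower circRNAs was that of Rbm33, which encodes an RNA-binding protein. mmu_circRNA_38328 (chr5:28331110-28352643, plus strand, exonic) read 8.25, 9.64 and 8.74 at 5 min and 6.33, 6.35 and 5.90 at 3 h. The difference was -2.69 (SE 0.38, adjusted p = 0.0144), with a gap of 1.90 between the groups. Sham, at 8.45, was near the 5-min level, and 24 h was lower again at 5.30. The call held in 8 of the 12 fits without one array and on slide 1 alone.

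Several lower circRNAs stood above sham at 5 min and had dropped back or below it at 3 h. For Adipor2, a receptor for adiponectin, mmu_circRNA_40842 (chr6:119361827-119365380) read 12.83, 12.90 and 12.97 at 5 min and 10.93, 11.39 and 9.62 at 3 h. The 5-min arrays were nearly level, while those of 3 h were spread, with replicate 3 of the second slide the lowest. The difference was -2.25 (SE 0.42, adjusted p = 0.0262), around a sham mean of 11.08 ± 0.39. For Edem2, which acts in the disposal of misfolded glycoproteins from the endoplasmic reticulum, mmu_circRNA_34829 had means of 14.16 at 5 min, 12.28 at 3 h and 12.72 in sham, a difference of -1.88 between the occluded groups (adjusted p = 0.0338).

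Snrnp200, Nek9, Birc6 and Supt20 were the host genes of others among the 10 largest decreases. The circRNA of Snrnp200, the helicase that activates the spliceosome, differed by -2.21 (SE 0.44, adjusted p = 0.0295). That of Nek9, a mitotic kinase, differed by -2.07 (SE 0.36, adjusted p = 0.0227), and that of Birc6, an inhibitor of apoptosis with ubiquitin-conjugating activity, by -2.05 (SE 0.37, adjusted p = 0.0227). In all 3 the arrays of 5 min varied little (SD of 0.38, 0.24 and 0.07) and those of 3 h more (0.86, 0.47 and 0.70). The circRNA of Supt20, a subunit of a histone acetyltransferase complex, differed by -2.24 (adjusted p = 0.0227).

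Klhl29 and Fam186b completed the largest 10, at -2.37 and -2.15 (adjusted p = 0.0469 and 0.0372). Both lost their calls on slide 1 alone, at an adjusted p of 0.0933 and 0.072. A circRNA of Slc29a2, a nucleoside transporter for which the study had designed primers, was 12.83 ± 0.03 at 5 min and 11.26 ± 0.62 at 3 h, a difference of -1.57 (adjusted p = 0.0469), and also lost its call on slide 1 (0.0779). The largest decrease without a name was that of probe ASCRP4011388, which read 10.40, 9.79 and 9.97 at 5 min and 7.48, 7.86 and 7.46 at 3 h (difference -2.45, adjusted p = 0.00858).

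Beside the Corin circRNA 38760, 3 probes kept their calls in all 12 fits without one array, and all 3 were lower at 3 h. They carry no name here and were singled out after their values were seen. ASCRP4006988 read 7.49, 7.44 and 7.43 at 5 min and 5.62, 5.14 and 4.69 at 3 h. ASCRP4006366 and ASCRP4006367 differed by -2.23 and -2.00 (adjusted p = 0.0033 and 0.00267). In all 3 the means of sham, 6.28, 6.83 and 6.51 in that order, lay between those of 5 min and 3 h.

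Among the higher circRNAs the largest difference was that of Tmem178b, a gene for a transmembrane protein. mmu_circRNA_40203, a sense-overlapping circRNA spanning 203389 bp (chr6:40004144-40207533), read 10.11, 6.70 and 8.12 at 5 min and 11.09, 11.91 and 11.64 at 3 h. The 5-min arrays were far apart, with replicate 1 only 0.98 below the lowest array of 3 h. The difference was 3.24 (SE 0.62, adjusted p = 0.0278), or 9.43-fold, and was 3.19 on slide 1 (0.0469). Sham was at 7.05 ± 0.13 and 24 h at 13.33 ± 0.27, the highest of the 4 groups.

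Replicate 1 of 5 min was also the high array in the next ones. For Rad54b, a DNA repair helicase of homologous recombination, mmu_circRNA_36481 read 12.53, 9.01 and 10.59 at 5 min and 13.80, 14.63 and 12.79 at 3 h, a difference of 3.03 (SE 0.69, adjusted p = 0.0467). A gap of 0.26 separated its groups. The circRNAs of Samd8 (a sphingolipid enzyme gene, 2.96) and Tm9sf1 (2.92) shared this picture, with gaps of 0.30 and 0.24 and the same adjusted p of 0.0467. The circRNA of the predicted gene Gm5134 differed by 2.91 (SE 0.52, adjusted p = 0.0227).

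Circular RNAs of Cnksr2 and Kirrel3 were also among the 10 largest increases. mmu_circRNA_45876 of Cnksr2, a postsynaptic scaffold of Ras signalling, read 9.22, 6.54 and 7.55 at 5 min and 10.42, 10.89 and 10.84 at 3 h (difference 2.95, adjusted p = 0.0452). This call was lost with slide as a fixed term (adjusted p = 0.0804) and without replicate 3 of 3 h (0.0803), which are one check. Both gave a difference of 2.89, and on slide 1 alone the call was kept (0.0359). Another circRNA of Cnksr2, mmu_circRNA_45879, had means of 8.87 and 7.95. The intronic circRNA mmu_circRNA_43956 of Kirrel3, a synaptic adhesion molecule, read 8.70, 6.08 and 6.98 at 5 min and 9.73, 10.69 and 9.68 at 3 h (difference 2.78, adjusted p = 0.0338). In Cnksr2 45876 and Kirrel3 the sham arrays lay near or below the lowest 5-min array, and 24 h stood higher still, at 12.22 and 13.61.

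Both potassium channel circRNAs that were called were among these. mmu_circRNA_010777 of Kcnma1, the large-conductance calcium-activated channel, differed by 2.90 (SE 0.53, adjusted p = 0.0241) and lay above sham, at 6.79, on all 3 arrays of 3 h. mmu_circRNA_19729 of Kcnq5, a channel of the M-current, read 7.09, 6.38 and 6.55 at 5 min and 9.54, 9.14 and 9.71 at 3 h (difference 2.79, adjusted p = 0.0338). The Kcnq5 call was lost with slide as a fixed term (adjusted p = 0.0622) and without replicate 3 of 3 h (0.062), which are one check. Both gave a difference of 2.66, and on slide 1 alone the call was kept (0.033). Here the 3-h mean of 9.46 was at the sham level of 9.71 ± 1.16, and 24 h was again low, at 7.02.

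That second course, low at 5 min and back at sham level at 3 h, was clearest for Akap6, an anchoring protein of protein kinase A in muscle and neurons. mmu_circRNA_001149 (chr12:52937134-52938506) read 8.58, 7.38 and 7.79 at 5 min and 10.94, 10.86 and 10.77 at 3 h. The 3-h arrays hardly varied, and the gap to 5 min was 2.20. The difference was 2.94 (SE 0.42, adjusted p = 0.0144), with 10.80 ± 0.77 in sham and 9.13 ± 0.42 at 24 h, and its call held in 8 of 12 fits without one array.

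Other members of this course came from Erbb3, the receptor of neuregulins, Adcy5, an adenylyl cyclase, and Trpc6, a calcium-permeable channel. The circRNA of Erbb3 read 10.84, 9.44 and 9.99 at 5 min and 12.75, 12.53 and 12.59 at 3 h, with sham at 12.60 (difference 2.54, adjusted p = 0.023). Those of Adcy5 and Trpc6 differed by 2.30 and 2.46 (adjusted p = 0.0227 and 0.0336), with 3-h means of 13.78 and 11.93 against sham means of 13.90 and 12.26. For Odf2l, a centrosome and cilium gene, 2 circRNAs that share their start differed by 2.58 and 2.55. The Trpc6 call was lost on slide 1 alone (adjusted p = 0.0517). The level of mmu_circRNA_003169 from Arhgap10, a GTPase-activating protein gene, came part of the way, with 8.91 at 5 min, 10.83 at 3 h and 12.09 in sham (difference 1.92, adjusted p = 0.0363, and 0.076 with slide as a fixed term). Its call was kept on slide 1 alone (0.0494).

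Counted over the called probes, with a distance of 1 log2 unit from the sham mean as the limit, 43 of the 136 higher probes lay below sham at 5 min and within the limit at 3 h. A further 67 were within the limit at 5 min and above sham at 3 h, and 13 were above sham at both times. Of the 86 lower probes, 30 were above sham at 5 min and within the limit at 3 h, 21 were within it at 5 min and below at 3 h, 4 went from above to below, and 31 stayed within it at both. The sham mean fell between the means of 5 min and 3 h for 78 of the 86 lower probes and for 46 of the 136 higher ones, against 38.9% and 19.3% of all tested probes with a negative and a positive difference. Called probes differed by at least 0.95, and a wide interval encloses the sham mean more easily. The larger shares may therefore come from the selection alone. At 24 h the mean was beyond that of 3 h, in the direction of the change, for 75 lower and 77 higher probes. The same share over all tested probes was not taken, and all arrays of 24 h were on the second slide. Sham and 24 h are given as levels only, since their arrays also set the spread of the fit.

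**Figure D4:**
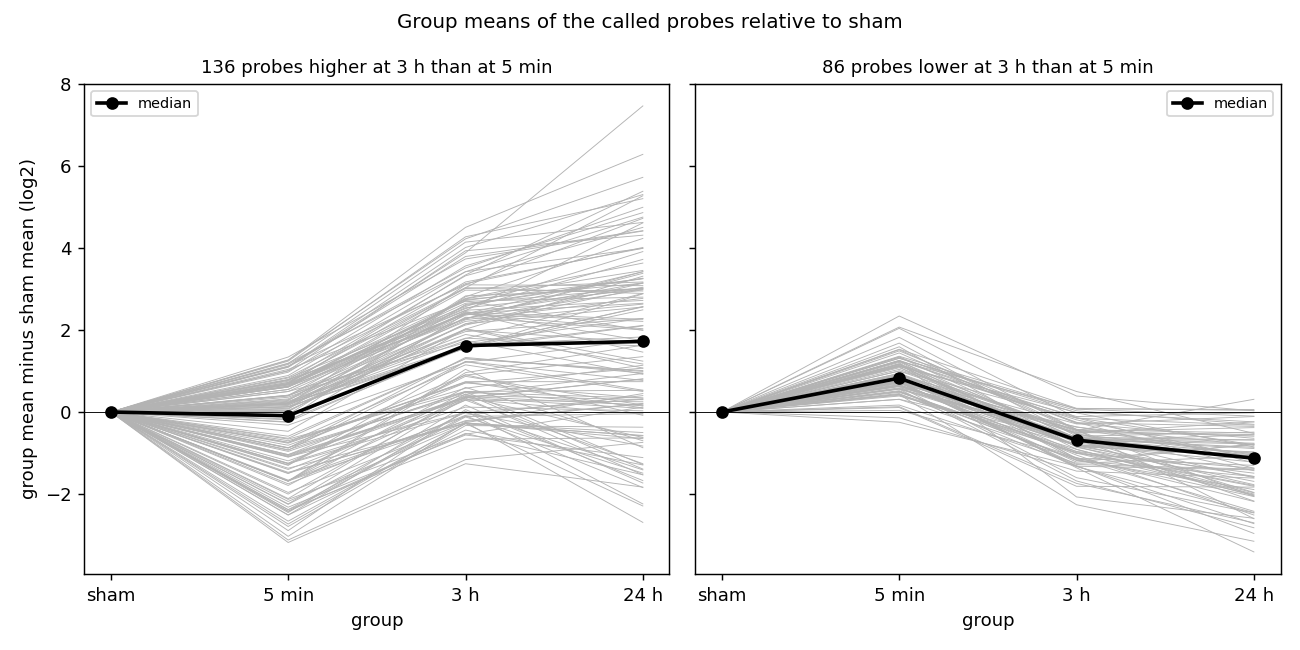
Mean of each group minus the sham mean (log2, y axis) in sham, 5 min, 3 h and 24 h (x axis) for the 136 probes called higher (left) and the 86 called lower (right) at 3 h than at 5 min; grey lines are probes and the black line their median. The median of the higher probes was -0.09 at 5 min and 1.62 at 3 h, and that of the lower ones 0.82 and -0.69.

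By host gene group, circRNAs were counted from 13 lists of genes, beside 902 named circRNAs of which 12.1% were called and whose median difference was 0.66. The list of glutamate receptors and synaptic adhesion had 15 circRNAs, of which 3 were called higher, none lower and 12 not called (median 1.35). The called ones included those of Cacng3, an auxiliary subunit of AMPA receptors (2.18, adjusted p = 0.0469), and Dlgap2, a postsynaptic scaffold (1.81, 0.0451). The Cacng3 call (mmu_circRNA_42273) was lost with slide as a fixed term (adjusted p = 0.0944) and as a random block (0.0509). It was kept on slide 1 alone (0.0265). Of 14 circRNAs of calcium channels and calcium release 1 was called, that of Trpc6, with a median of 1.11. The primer-targeted circRNA of Ryr2, a calcium release channel, had means of 10.31 at 5 min and 9.18 at 3 h (difference -1.13, adjusted p = 0.203).

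Cyclic nucleotide signalling had 3 of 12 called higher (median 1.40), from Akap6, Adcy5 and a place that holds Pde5a and a second gene. Among the 10 circRNAs of voltage-gated potassium and sodium channels 2 were called higher (median 0.83). The cilium and centrosome list had 24, with 4 higher and 1, Nek9, lower (median 1.31). The higher ones came from Odf2l, Spice1 and Bbs9, the last a subunit of the complex that carries proteins into cilia (1.96, adjusted p = 0.0227). The calls at Pde5a and Spice1 were lost with slide as a fixed term, and on slide 1 alone the one at Spice1 was lost.

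Growth factor and Ras signalling had 3 of 22 called, all higher (median 0.64), among them Erbb3 and Rasa3, a Ras GTPase-activating protein (2.53, adjusted p = 0.0476, lost on slide 1 at 0.0875). Exocytosis and vesicle traffic had 3 of 27, with Synj2, a phosphoinositide phosphatase (2.05, adjusted p = 0.0227), and Rab6b, a neuronal Rab GTPase (1.80, 0.0227), in the lead. Chromatin regulators had 2 of 37 called, Mllt10, a partner of the DOT1L methyltransferase (2.68, 0.0227), and Dnmt3a, a de novo DNA methyltransferase (2.30, 0.0227). The medians of the exocytosis and chromatin lists were 0.65 and 0.63.

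In the list of hypoxia response and glucose use, 1 of 11 was called. It was mmu_circRNA_001832 (chr6:82730767-82739674) of Hk2, the hexokinase that starts glucose use and is known to respond to low oxygen, which read 12.65, 10.25 and 11.40 at 5 min and 13.50, 13.73 and 13.76 at 3 h. The difference was 2.23 (SE 0.46, adjusted p = 0.0336), with sham at 10.24, and the call was lost on slide 1 alone (0.0556). A circRNA whose place holds Hif1a, the oxygen-regulated transcription factor, and a second gene had a difference of 2.61 that did not pass (adjusted p = 0.121). Innate immunity and inflammation had 1 of 9, an antisense circRNA at Trim21, an antibody receptor and ubiquitin ligase (1.42, adjusted p = 0.0469, and 0.0622 with slide as a fixed term). Its call was kept on slide 1 alone (0.0496). The ubiquitin and SUMO list had 2 of 29 higher, Siah1a (1.88, 0.044) and Trim21, and 1 lower, Birc6.

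RNA binding and splicing was the one list of the 13 with a median below 0 (-0.75) and with calls that were lower alone, Rbm33 and Snrnp200, out of 35. That is 5.71% called, against 12.1% of all named circRNAs. The median over all tested probes was also below 0, at -0.11. The circRNA of Khdrbs1, an RNA-binding protein of alternative splicing and a primer target, read 12.78, 14.37 and 13.52 at 5 min and 11.87, 11.18 and 11.10 at 3 h, a difference of -2.17 that did not pass (adjusted p = 0.137) beside sham values from 12.04 to 16.30.

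Markers of blood cells and of nervous tissue were read through the named circRNAs alone, so the label of whole blood could not be checked on defining genes. Among erythroid genes, the circRNA of Dmtn, a protein of the red cell membrane skeleton, was lower (-1.34, adjusted p = 0.0308). Summed over the 2 erythroid circRNAs, levels ranged from 11.91 to 12.12 (5 min), 10.40 to 10.86 (3 h) and 11.13 to 11.50 (sham). The 5 platelet circRNAs had no call, and their summed level lay between 11.27 and 13.14 on the arrays of 5 min and between 12.82 and 13.76 on those of 3 h. Every sham array had a higher platelet sum (14.30 to 14.49). Among 8 neutrophil and monocyte circRNAs 1 was called, from Lyst, a regulator of lysosome-related granules (2.45, 0.0194). The other circRNAs of Lyst (1.18 and 1.00) were not called. They have both ends within 10 bp of each other, so nearly the same junction enters the list and its sum through 2 probes. The circRNAs of Plbd1 (-1.17) and Emilin2 (-1.06) had negative differences, and the rest of the list had positive ones (median of the 8, 0.92). The sum of the 8 lay between 11.06 and 11.09 at 5 min, then between 11.12 and 11.56. Both were below the sham arrays (11.77 to 12.79). The 2 lymphocyte circRNAs were not called. Their sums spanned 9.43 to 11.99 (5 min), 10.20 to 11.61 (3 h) and 9.65 to 9.75 (sham). The 11 of neurons and glia had Kirrel3 as their one call, and the sum of all 11 lay between 11.55 and 12.83 on the 5-min arrays, 12.81 and 13.27 on the 3-h arrays and 10.87 and 11.06 on the sham arrays. Each sum follows the brightest probes of its list most. The part of blood cell shares in the results was not tested.

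Of the 17 circRNAs with mouse primers, 5 were called: Tmem178b, Cnksr2 and Kirrel3 higher, Rbm33 and Slc29a2 lower. Of all 902 named circRNAs 12.1% were called, and of all tested probes 2.08%. The primer targets belong to the circRNAs that the study chose on these same arrays, so their count is no independent evidence. The circRNAs of Dab1, a reelin adaptor, and Psmd12, a proteasome subunit, had differences of 2.30 and 2.00 that did not pass (adjusted p = 0.0979 and 0.0945). Those of Sppl2a, Cep350, Tmcc1 and Ankrd42 had differences from 1.47 to 1.69 with adjusted p of 0.137 to 0.257. On slide 1 alone those of Dab1 (2.87, adjusted p = 0.0242), Ankrd42 (2.40, 0.0321) and Tmcc1 (1.96, 0.0366) were called. Those of Psmd12, Sppl2a and Cep350 were not called there (0.132, 0.145 and 0.117). The circRNA of Ankrd42 overlapped between the groups, since replicate 3 of 3 h (9.93) lay below replicate 2 of 5 min (10.02). The circRNAs of Bbs2, Wdr11, Phka2 and an intergenic place on chromosome 13 differed by 0.75, 0.73, 0.33 and 0.44, with overlapping groups and adjusted p of 0.519 to 0.743. For Phka2, a phosphorylase kinase subunit, the 3 arrays of 5 min (11.05, 12.78 and 11.71) enclosed replicate 2 of 3 h (12.50), and both groups were below the 3 sham arrays (14.95 to 15.11).

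Host genes with several named circRNAs numbered 76, and 16 of them had a call. Their circRNAs mostly shared a sign. The 3 circRNAs of Trpc6 differed by 2.46, 1.69 and 1.30, the 4 of Utrn, the dystrophin relative, by 1.89, 1.65, 1.61 and 1.58, and the 3 of Lyst by 2.45, 1.18 and 1.00. The Utrn circRNAs at 1.65 and 1.58 have both ends within 10 bp of each other, as do the Lyst circRNAs at 1.18 and 1.00. Each such pair is nearly the same junction and does not count as separate agreement. Near-identical junctions were not merged in these counts. Signs differed within Corin, Cnksr2 and Arhgap10. For Arhgap10 an exonic circRNA of 231 bp had a difference of -0.69, beside 1.92 for one of 54430 bp.

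By type, 66 of the 90 named higher circRNAs were exonic (73.3%, against 73.5% of the 902), 10 sense overlapping, 6 intronic, 5 antisense and 3 intergenic. Of the 19 lower ones 16 were exonic and 3 sense overlapping. The median genomic span was 8998 bp in the higher and 3553 bp in the lower circRNAs, against 10149.5 bp in all 902. Brighter probes held more of the higher calls: of the 3 equal groups of probes by mean level the dimmest had 10 and the brightest 85, with 27 and 36 lower calls, while the median difference was -0.11 and -0.09.

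Detection itself differed between the times. The scanner software called 533 probes well above background on all 3 arrays of 3 h and on none of 5 min, and 1 probe the other way. Of the 533, 142 were bright enough to be tested and 3 had a name. The lower bound of their difference, set by the dimmest signal called well above background on each 5-min array, had a median of 0.42 log2 units. It ranged from -0.51 to 2.77, and a bound below 0 sets no least rise. The highest belonged to probe ASCRP4002410, which was not tested, with 7.21, 7.74 and 7.16 at 3 h and not well above background at 5 min, at least 6.84-fold higher. For the probe with the next highest bound, ASCRP4006509, the 3-h values were 5.52, 5.86 and 11.24, so that replicate 3 on slide 2 set the value, and its adjusted p was 0.359. Replicate 3 was also far above the others for the probes that followed, ASCRP4001612 (5.17, 5.78 and 9.58) and ASCRP4010187 (4.39, 4.46 and 11.09). The dimmer arrays of 5 min and the count of 533 cannot be told apart.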

How the data were processed

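For each array the authors deposited Agilent Feature Extraction 11.0.1.1 output, linear intensities per spot (median pixel values of the spot and of its surroundings, plus a processed signal), and for the series a table of log2 values that they had quantile normalized; its values show no background subtraction. Here spot medians were corrected by normexp (offset 0), quantile normalized across all 15712 spots and log2 transformed (limma 3.58.1, R 4.3.3), and outlier spots were set to missing. A probe was tested where it reached 1.1 times the 95th percentile of 77 negative control spots on each of the 12 arrays. All 4 groups entered one limma fit, whose empirical Bayes step followed the mean-variance trend and gave moderated two-sided tests, adjusted by Benjamini-Hochberg over 10678 probes. Residual degrees of freedom were 8. An SE is limma's moderated one, and an SD is over 3 arrays. Calls needed an adjusted p of at most 0.05. With 3 arrays a group, their number limits the precision. The procedure was tested on simulated data.

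The 903 listed circRNAs were matched to probes by mean and difference from sham within 0.0005 log2 units (the next nearest probe at least 0.008 away). Host symbols at the listed place were resolved in the RefSeq annotation for 857, 22 of them by correcting up to 2 letters. Slides were told apart by scan time. Named circRNAs are the 10 largest calls in each direction whose host gene is in the annotation, the 17 with mouse primers, up to 2 calls per direction in each gene list, and the largest unnamed call per direction; further ones were named for a pattern after their values were seen. Members and lists were chosen with earlier results of these data known. The alternatives changed the background correction, normalization, filter, samples in the fit, empirical Bayes step, array weights, slide (statmod 1.5.0), replicate block, single arrays, threshold and shared junctions. The labels and the methods give different ages for the mice. Promoter sequences are RefSeq's, and circRNA junction sequences were not used here. Some results that fall under these rules are not reported here.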

Additional observations from a re-analysis of the deposited data

How the results depend on the processing

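The 222 calls kept their sign in every alternative that measured them, while their number moved. It was 139 with the processed signal over its 75th percentile, 142 with no filter, 143 with the limit passed on at least 3 of 12 arrays, 50 with only the 6 arrays compared, 603 with only the 8 arrays of slide 1 and 6490 with array weights, in which single arrays had weights from 0.0916 to 21.4. Leaving out one array gave from 4 to 711 calls, of which from 4 to 222 were among the 222. The 80 calls of at least 2 log2 units became 24 with only the 6 arrays compared, 183 with array weights, 142 with only the 8 arrays of slide 1, 220 at a threshold of 1 log2 unit, and from 4 to 188 without one array. The 109 named calls held no pair of near-identical junctions. No other alternative moved either count by more than 1.5 times. Replicate numbers did not pair the arrays: same-numbered arrays of 5 min and 3 h had deviations from their group means correlated at -0.268, -0.00196 and -0.112, and no number correlated best with its own. The replicate block gave 278 calls, 182 of them higher, and 98 of at least 2 log2 units. Among the circRNAs named by the rule, 3 values turned sign, none of them called: mmu_circRNA_26316 was -0.32 without 5-min replicate 1, and mmu_circRNA_45921 of Phka2 was -0.07 without 5-min replicate 1 and -0.10 without 3-h replicate 1. With 3 arrays a group, 91 of the 222 calls had an adjusted p over 0.04. Signal near background on the dim 5-min arrays limits what can be read of faint circRNAs. Without one array their values ranged from -0.32 to 0.92 (26316) and from -0.10 to 0.93 (45921). The causes of these shifts were not tested.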
